A study of Homo sapiens with 8 samples.

Results

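Matrix metalloproteinases (MMPs) and their tissue inhibitors (TIMPs) were described here as 10 genes chosen by name, namely MMP1, MMP2, MMP7, MMP9, MMP10, MMP13, MMP14, TIMP1, TIMP2 and TIMP3, out of 58735 genes in the deposited count table. All 10 names were found, each in 1 row. The cells were SV-HUC1, an established cell line grown from normal human urothelium and immortalised with SV40. Per the labels, 4 flasks were untreated and 4 received glucose oxidase (20 mU per ml, 24 h), an enzyme that releases hydrogen peroxide as it oxidises glucose. All 8 were grown in the same serum-containing medium, and no culture received peroxide alone or inactive enzyme. The libraries of each group are numbered 1 to 4, and no label says that a number marks a shared experiment.

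MMPs are zinc proteases that cut extracellular matrix and cell surface proteins. Most are secreted as inactive precursors held shut by a propeptide and are opened by other proteases. TIMPs block the active enzymes by binding them one to one, and TIMP2 also takes part in the cell surface complex in which MMP14 opens the MMP2 precursor. In the bladder wall these enzymes are known for remodelling of the basement membrane and stroma, and several of their genes are classical targets of AP-1 transcription factors.

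Of the 10 genes, MMP7 and MMP2 fell and MMP9 rose in glucose oxidase-treated cultures, in a model that takes the replicate number into account. The MMP9 result was close to the threshold and was lost when any replicate number was left out. With the group as the only term, 0 members passed. MMP7 went from 3.73 ± 0.88 to 1.38 ± 1.09 CPM (read counts scaled to a common library size and corrected for library composition; SD, n = 4). MMP2 went from 5.51 ± 1.07 to 2.97 ± 0.48 CPM and MMP9 from 2.64 ± 0.42 to 4.19 ± 0.52 CPM (SD, n = 4). The most abundant members, MMP14 and the 3 TIMPs, had fitted log2 changes between -0.21 and 0.14 and did not pass the test. MMP1 and MMP13 were measured with few reads and wide intervals, and MMP10 was too low to judge.

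Counts were tested with edgeR's quasi-likelihood test and adjusted over 17413 genes by the Benjamini-Hochberg method. The words rose and fell are used for an adjusted p below 0.05 in the fit that has the replicate number as a block. There 1 of 9 tested members rose and 2 fell, where 14.5% of all tested genes were called, 7.51% higher and 6.97% lower. The median log2 change was -0.16 over the 9 members and -0.0068 over all genes. The planned main fit had the group as its only term, and the block was an alternative to it. With the group as the only term, edgeR called 0 members and 0% of all genes. At an unadjusted p below 0.05 that fit held 3 members, MMP2, MMP7 and MMP9, against 7.37% of all genes, and DESeq2 without the block also called 0 members and 0.361% of all genes. DESeq2 with the block called 0 members higher and 2 lower, MMP2 and MMP7, where 16.6% of all genes were called. A fit with a term for the replicate set, numbers 1 and 2 or numbers 3 and 4, in place of the block called 0 members higher and 2 lower (MMP2 and MMP7), against 6.79% of all genes, 3.72% higher and 3.07% lower. That division into sets comes from the expression values, not from the labels. The study's description calls the 4 replicates independent experiments but does not say how far their cultures were separate. The group-only p-values therefore set the group difference against the spread among the 4 libraries within each group. Those with the block or the set term set it against the spread left after differences between replicate numbers or sets are taken out.

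**Figure D1:**
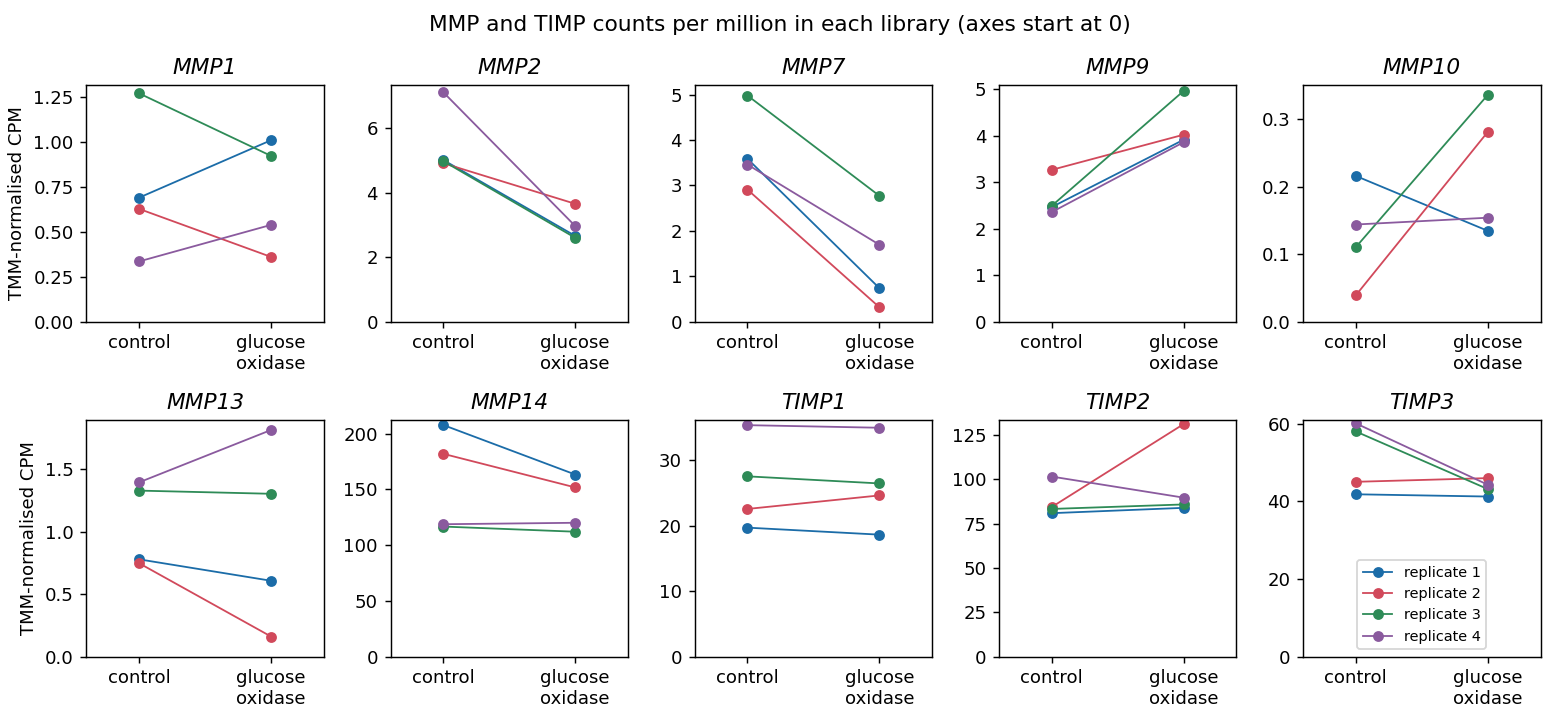
CPM (vertical axes, each from 0, TMM-normalised) of each member in the 4 control and 4 treated libraries, with lines joining libraries of the same replicate number. Treated libraries lie below all controls for MMP2 and MMP7 and above all controls for MMP9.

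Total counts ran from 21437267 to 27183692 per library, and the 10 members together took 0.0231 to 0.042% of them. Most markers of other cell types were low. Of 8 fibroblast markers 7 had a mean below 1 CPM, the exception being COL1A1 at 19.4 CPM, and their summed level ran from 17.5 to 27.1 CPM in controls and from 16.3 to 27.5 CPM in treated cultures. The 10 leukocyte markers summed to 4.63 to 5.87 CPM in controls and 3.64 to 4.62 CPM in treated cultures. Of these 9 had a mean below 1 CPM, the exception being CD14 at 3.5 CPM. The 6 endothelial markers summed to 4.11 to 5.27 and 3.00 to 6.01 CPM, and 5 had a mean below 1 CPM, the exception being CDH5 at 3.35 CPM. CD14 and CDH5 were thus at levels like those of MMP2, MMP7 and MMP9. Only 3 of the fibroblast, 2 of the leukocyte and 2 of the endothelial markers had counts high enough to be tested, and 0 of them passed in the blocked fit. None of the markers was at 0 in all libraries. The 13 urothelial and epithelial markers summed to 5807 to 8433 CPM in controls and 4190 to 4701 CPM in treated cultures. Of 12 tested in the blocked fit, 1 was higher (GATA3) and 4 were lower (KRT5, KRT8, KRT13 and KRT19). In that fit 7.51% of all tested genes were higher and 6.97% lower, and with the group only edgeR called 0 genes. The part of all these markers in the MMP and TIMP values was not tested. In such bulk RNA, fewer cells that express a gene and less RNA per cell cannot be told apart.

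Levels were compared between genes on the deposited FPKM scale, which divides by gene length. MMP14, a membrane-anchored protease, was the highest member in controls, with 26.5 to 45.4 FPKM. TIMP1 followed with 12.5 to 22.9 FPKM, TIMP2 with 14.0 to 18.0 FPKM and TIMP3 with 8.86 to 13.03 FPKM. The control ranges of TIMP1 and TIMP2 overlapped, while those of MMP14 and TIMP1, and of TIMP2 and TIMP3, did not. A wide step separated these 4 genes from MMP7 (1.20 to 2.18 FPKM), MMP9 (1.01 to 1.34 FPKM) and MMP2 (0.954 to 1.44 FPKM), whose neighbouring ranges overlapped. MMP13 (0.252 to 0.490 FPKM) and MMP1 (0.170 to 0.658 FPKM) also overlapped each other, and MMP10 was lowest with 0.0214 to 0.120 FPKM. MMP14 alone made up 82.9 to 91.9% of the summed FPKM of the 7 MMPs in every library. Among these 7 MMPs, MMP9 was second in treated cultures at a mean of 1.76 FPKM, above MMP2 and MMP7 at 0.592 and 0.591 FPKM. Outside the members, MMP28 and MMP15 had higher treated means than MMP9, 12.5 and 3.28 FPKM.

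**Figure D2:**
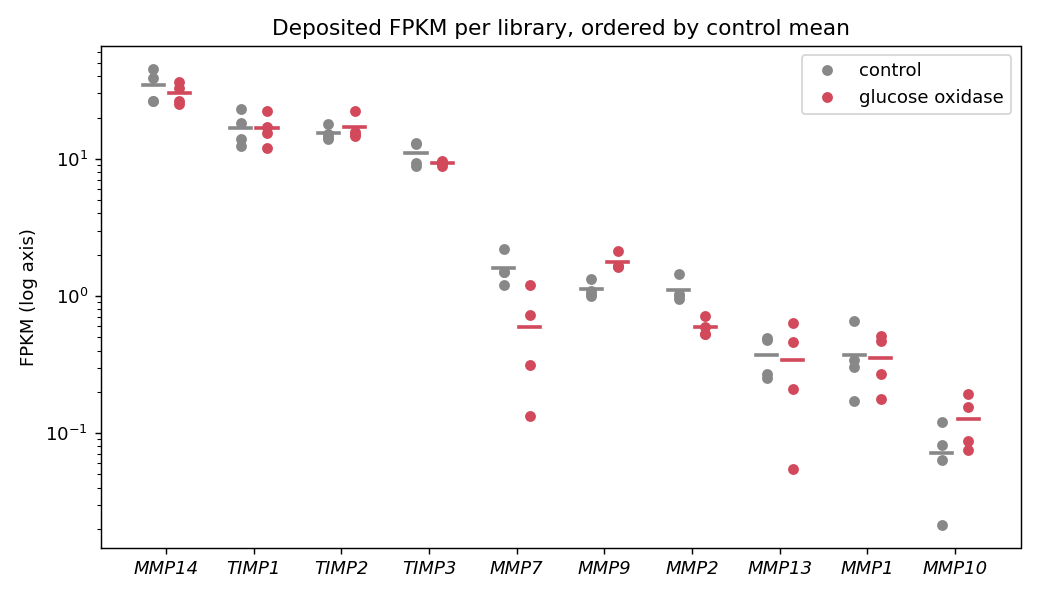
Deposited FPKM (log axis) of the members in control and treated libraries, ordered by the control mean, with points for the 4 libraries of each group and bars for the means. MMP14 and the TIMPs lie between 8.84 and 45.4 FPKM and the other MMPs below 2.2 FPKM.

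MMP7, matrilysin, is a small epithelial MMP without the haemopexin domain of its relatives. Its gene (ENSG00000137673) lies on the minus strand of chromosome 11, from 102520508 to 102530753 in GRCh38. The promoters of MMP7 and MMP10 are shown because both hold an AP-1 match and a TATA match close to the start, while MMP7 fell and MMP10 was too low to test. They are the 250 bases before the RefSeq start, 5′ to 3′ on the gene's strand, in build GRCh38.p14, MMP7 at chr11:102530748-102530997 and MMP10 at chr11:102780629-102780878. Capitals mark the AP-1 match and the TATA box:
MMP7: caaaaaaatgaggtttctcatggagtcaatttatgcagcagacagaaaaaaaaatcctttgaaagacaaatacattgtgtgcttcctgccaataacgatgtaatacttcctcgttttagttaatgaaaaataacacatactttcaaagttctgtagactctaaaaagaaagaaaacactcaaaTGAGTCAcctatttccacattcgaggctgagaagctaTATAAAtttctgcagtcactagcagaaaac
MMP10: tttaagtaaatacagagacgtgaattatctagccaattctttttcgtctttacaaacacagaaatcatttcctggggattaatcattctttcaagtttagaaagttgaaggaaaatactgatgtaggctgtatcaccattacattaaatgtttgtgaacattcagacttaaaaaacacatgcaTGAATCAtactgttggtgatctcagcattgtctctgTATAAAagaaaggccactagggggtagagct
The AP-1 motif searched was TGANTCA, which matches itself on the opposite strand. It lies 67 to 61 bases before the start in both genes, and its middle base differs between them. The TATA box, searched on both strands as TATAAA, begins 30 bases before the start of MMP7 and 31 before that of MMP10. The 2 motifs do not overlap there. RefSeq promoters were matched for 5 of the 10 members (MMP7, MMP10, MMP14, TIMP1 and TIMP3), and MMP14, TIMP1 and TIMP3 hold neither motif in the same window. Among 35116 promoters, 6.57% hold the AP-1 motif and 10.7% the TATA box in those 250 bases. An ETS-type motif, AGGAAG, stands in the windows of MMP7 (2 matches) and TIMP1 (1 match), and in 28.7% of all promoters. Variants of these motifs were not searched, so a window without a match can still hold a related site. A match is a description of the sequence and not a measured binding site.

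The MMP7 level was 3.59, 2.91, 4.98 and 3.46 CPM in controls 1 to 4. In treated cultures 1 to 4 it was 0.742, 0.321, 2.77 and 1.70 CPM. All 4 treated libraries lay below all 4 controls, treated 1 and 2 lowest. Such a placement below was held by 2 of the 9 tested members and by 2.6% of all tested genes, and above by 1 member and 2.42%. The MMP7 log2 change was -1.66 (SE 0.31, 95% interval -2.31 to -1.02, edgeR adjusted p = 0.000993) with the block and -1.64 (adjusted p = 0.0116) with the set term. Without either term it was -1.43 (SE 0.52, adjusted p = 0.658). The smallest value rests on 8 counts in treated 2, for which counting error alone allows 0.139 to 0.633 CPM (exact 95% Poisson interval). The authors' deposited table gives MMP7 a log2 change of -1.43 with an adjusted p of 0.343.

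MMP2 and MMP9 are the gelatinases, which degrade type IV collagen of basement membranes and denatured collagens. The MMP2 gene (ENSG00000087245) is on the plus strand of chromosome 16, from 55389700 to 55506691. MMP2 was at 5.01, 4.91, 4.98 and 7.11 CPM in controls 1 to 4. Treated cultures 1 to 4 held 2.66, 3.66, 2.60 and 2.97 CPM. The groups did not overlap, and control 4 stood above the other controls. MMP2 fell by 0.88 on the log2 scale (SE 0.22, 95% interval -1.32 to -0.44, edgeR adjusted p = 0.00716) with the block. Its adjusted p was 0.0225 with the set term and 0.568 with the group only. Without replicate 4 the blocked log2 change was -0.75 and the adjusted p 0.0652. In the authors' deposited table MMP2 has the smallest adjusted p of the members, 0.0766, at a log2 change of -0.90.

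The MMP9 gene (ENSG00000100985) is on the plus strand of chromosome 20, from 46008908 to 46016561. MMP9 was at 2.46, 3.26, 2.49 and 2.36 CPM in controls 1 to 4. In treated cultures 1 to 4 it was at 3.91, 4.02, 4.96 and 3.86 CPM. All treated libraries lay above all controls. MMP9 rose by a log2 change of 0.66 (SE 0.23, 95% interval 0.19 to 1.13, edgeR adjusted p = 0.0498) with the block. That call is close to the threshold and was lost with the set term (adjusted p = 0.0687), in DESeq2 with the block (adjusted p = 0.0892) and without any 1 of the 4 replicate numbers (adjusted p 0.0606 to 0.209). The 2 gelatinases had changes of opposite sign in every replicate number, with MMP2 lower and MMP9 higher in 4 of 4. Among all tested genes 17.1% were lower and 16.9% higher in all 4 replicate numbers. The 3' part of MMP9 overlaps the antisense gene SLC12A5-AS1, which had 92 counts over the 8 libraries, and whether reads were counted by strand is unknown here.

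**Figure D3:**
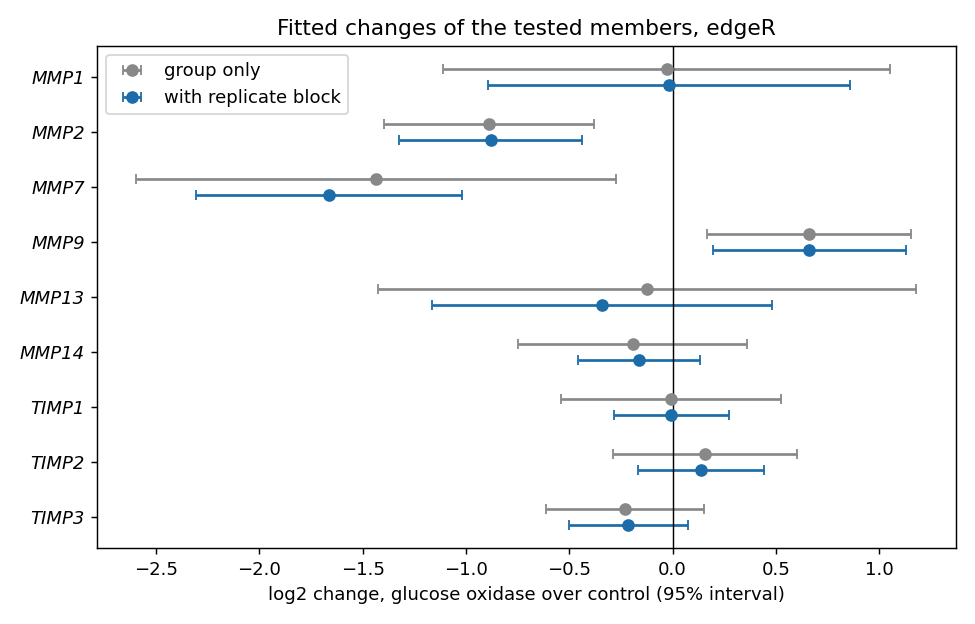
Fitted log2 change of glucose oxidase over control (horizontal axis) with 95% intervals for the 9 tested members, with the group only and with the replicate block. MMP2, MMP7 and MMP9 have blocked intervals on 1 side of 0, and the intervals of MMP1 and MMP13 are widest among the members that did not pass.

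MMP14 (ENSG00000157227, chromosome 14, 22836557 to 22849027, plus strand) encodes the membrane type 1 MMP. Its level was 207.7, 181.9, 116.6 and 118.7 CPM in controls 1 to 4. Treated cultures 1 to 4 had 163.3, 151.7, 112.0 and 120.0 CPM. The groups overlapped, and the libraries divided by replicate set instead, numbers 1 and 2 lying above numbers 3 and 4 in both groups. The MMP14 log2 change was -0.16 (SE 0.14, 95% interval -0.46 to 0.13, edgeR adjusted p = 0.494) with the block. A fall larger than that lower bound is outside the interval of this fit, and changes within the interval could not be told from none.

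MMP1 and MMP13 are collagenases, which cleave the triple helix of fibrillar collagens. MMP1 (ENSG00000196611) had 16, 16, 23 and 7 counts in controls 1 to 4 and 30, 9, 22 and 14 in treated cultures. Its mean was 0.73 ± 0.39 CPM without and 0.71 ± 0.31 CPM with glucose oxidase (SD, n = 4), below 1 CPM in both, and the groups overlapped. The MMP1 log2 change was -0.019 with the block (SE 0.43, 95% interval -0.89 to 0.86, edgeR adjusted p = 0.983), and its sign turned under other scalings. MMP13 (ENSG00000137745) had 18, 19, 24 and 29 counts in controls 1 to 4 and 18, 4, 31 and 47 in treated cultures. Controls averaged 1.06 ± 0.35 CPM and treated libraries 0.97 ± 0.73 CPM (SD, n = 4). The MMP13 log2 change was -0.34 with the block (SE 0.40, 95% interval -1.16 to 0.48, edgeR adjusted p = 0.625), and without replicate 2 it was 0.040. For both genes the intervals are too wide to show or to exclude a moderate change in either direction.

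MMP10, stromelysin 2, which degrades several matrix proteins and opens other MMP precursors, was the only member that did not pass the filter on low counts. MMP10 (ENSG00000166670) had 5, 1, 2 and 3 counts in controls 1 to 4 and 4, 7, 8 and 4 in treated cultures. The sums were 11 counts in controls (exact 95% Poisson interval 5.49 to 19.7) and 23 in treated cultures (14.6 to 34.5), which cover counting error only. These intervals overlap, but the sums are not scaled to library size, and the overlap is not a test between the groups. On the CPM scale the means were 0.13 in controls and 0.23 in treated cultures, and the gene was left without a test.

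MMP7, MMP10, MMP1 and MMP13 lie in a single stretch of 435.2 kb on chromosome 11 (102520508 to 102955734), which holds 9 protein-coding genes, all of them MMPs on the minus strand. The other 5, MMP20, MMP27, MMP8, MMP3 and MMP12, had between 3 and 25 counts each over all 8 libraries and were not tested. MMP7 was the most counted gene of the stretch with 459 counts, followed by MMP13 with 190 and MMP1 with 137. The blocked log2 changes of the 3 tested neighbours were -1.66 for MMP7, -0.019 for MMP1 and -0.34 for MMP13, and the differences between genes were not tested. MMP1 and MMP10 overlap WTAPP1 on the opposite strand, which had 14 counts in all.

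**Figure D4:**
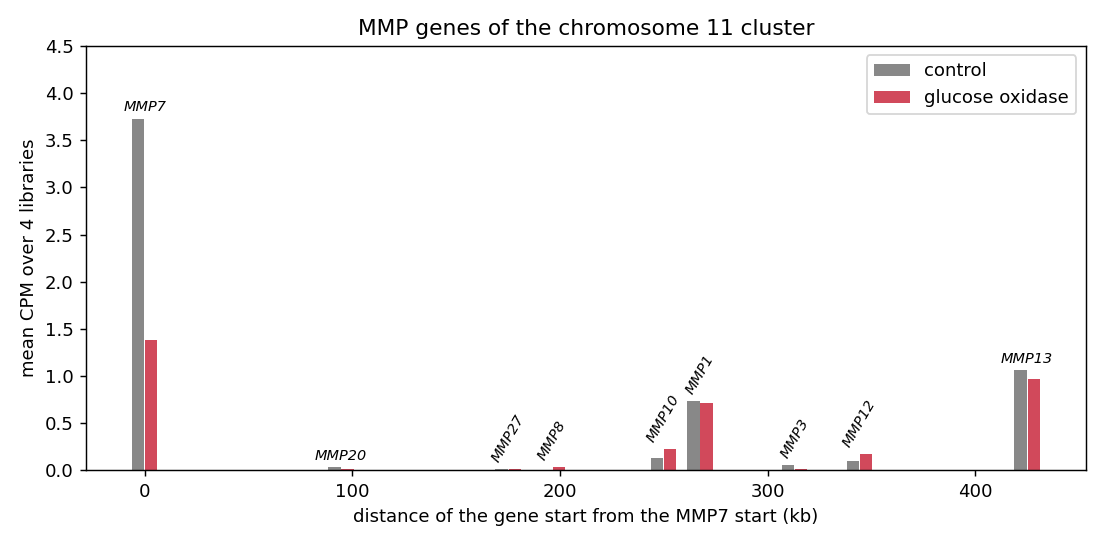
Mean CPM over the 4 control and the 4 treated libraries for the 9 MMP genes of the chromosome 11 stretch, against the distance of each gene start from that of MMP7 in kb. MMP7 stands at 3.73 and 1.38 CPM, and MMP1 and MMP13 are near 1 CPM in both groups.

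The inhibitors did not pass the test in either direction. TIMP1 (ENSG00000102265, chromosome X, 47582313 to 47586789), a secreted inhibitor of most MMPs, was at 19.7, 22.6, 27.6 and 35.4 CPM in controls 1 to 4. In treated cultures 1 to 4 it was at 18.6, 24.6, 26.5 and 35.0 CPM. Libraries of numbers 3 and 4 were higher than those of numbers 1 and 2 in both groups, and the groups overlapped. The TIMP1 log2 change was -0.0068 with the block (SE 0.14, 95% interval -0.28 to 0.27, edgeR adjusted p = 0.981), the narrowest interval among the 9 tested members.

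TIMP2 (ENSG00000035862, chromosome 17, 78852977 to 78925387), the partner of MMP14 in opening the MMP2 precursor, was at 80.8, 84.3, 83.2 and 101.5 CPM in controls 1 to 4. Treated cultures 1 to 4 had 83.8, 131.0, 85.8 and 89.6 CPM. Treated 2 stood far above the other treated libraries, and the groups overlapped. The TIMP2 log2 change was 0.14 (SE 0.15, 95% interval -0.17 to 0.44, edgeR adjusted p = 0.589) with the block, and -0.013 without replicate 2.

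TIMP3 (ENSG00000100234, chromosome 22, 32801701 to 32863043), which stays bound to the matrix and also inhibits ADAM sheddases, was at 41.8, 45.1, 58.0 and 60.1 CPM in controls 1 to 4. In treated cultures 1 to 4 it was at 41.3, 46.0, 43.2 and 44.3 CPM. Controls 3 and 4 were the highest libraries, and the others lay close together. The TIMP3 log2 change was -0.21 (SE 0.14, 95% interval -0.50 to 0.073, edgeR adjusted p = 0.331) with the block. TIMP1 and TIMP3 each lie within a synapsin gene on the opposite strand, SYN1 with 41 and SYN3 with 11 counts in all, and TIMP2 overlaps CEP295NL on its own strand with 132 counts, against 4967, 8960 and 17739 counts of the inhibitors themselves.

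Because the libraries fell into replicate sets, the change of each member was also fitted within numbers 1 and 2 and within numbers 3 and 4. MMP7 had a log2 change of -2.57 in the first set and -0.92 in the second, a difference of 1.65 (SE 0.57, 95% interval 0.42 to 2.89). That difference had an unadjusted p of 0.0123 and did not pass (edgeR adjusted p = 0.471), and 8.4% of all genes had an unadjusted p below 0.05. MMP2 had log2 changes of -0.66 and -1.12 and MMP9 of 0.47 and 0.86, with differences of -0.46 (SE 0.40) and 0.40 (SE 0.40). TIMP3 had 0.0059 and -0.43, and TIMP2 0.38 and -0.075. Of the 9 tested members 0 passed this test of a difference in edgeR, 1 had an unadjusted p below 0.05, and 0.23% of all tested genes passed. Apart from the treatment, all 4 libraries of numbers 1 and 2 lay above all 4 of numbers 3 and 4 for MMP14, and below them for MMP13 and TIMP1. The same placement was held by 17.7% of all tested genes above and 18.8% below.

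Genes whose levels most resembled the 3 members with the largest blocked changes were named by Pearson's r of log2 CPM over the 8 libraries, among 11521 genes of at least 5 CPM. For MMP7 they were EFNA1 (r = 0.989), AC245041.2 (r = 0.975) and GUSBP1 (r = 0.971). The nearest to MMP2 were FGFR2, a fibroblast growth factor receptor (r = 0.956), PHKG2 (r = 0.944) and SNX21 (r = 0.941). MMP9 was most like PARP14 (r = 0.981), SIRPB2 (r = 0.975) and SEMA3A (r = 0.973). With the block, EFNA1, AC245041.2 and FGFR2 fell and SIRPB2 and SEMA3A rose, with edgeR adjusted p from 0.000194 to 0.0410. GUSBP1, PHKG2, SNX21 and PARP14 did not pass, with edgeR adjusted p of 0.0908, 0.222, 0.0990 and 0.0666. These values describe 8 libraries that share treatment and replicate sets, and the highest of many r values are high by selection.

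Of the other MMP genes and TIMP4, 9 of 17 were tested, 1 rose and 0 fell, with a median log2 change of 0.16. Over all tested genes 7.51% rose and 6.97% fell. MMP15, a membrane-anchored MMP like MMP14, rose, from a control mean of 10.3 ± 1.63 to a treated mean of 14.7 ± 1.63 CPM (SD, n = 4), a log2 change of 0.52 (edgeR adjusted p = 0.0264). Its call was lost with the set term (adjusted p = 0.0624) and without replicate 1, 3 or 4 (adjusted p 0.0695 to 0.113). TIMP4 had a log2 change of 0.68 and did not pass (edgeR adjusted p = 0.0979), and MMP28 was the most abundant of them per length at 11.8 FPKM in controls and 12.5 FPKM in treated cultures. MMP26 had 0 counts in all libraries.

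Among ADAM and ADAMTS proteases, relatives of the MMPs that shed surface proteins or cut proteoglycans, 4 of 16 tested genes rose and 0 fell (also 4 and 0 with the set term), with a median log2 change of 0.0058. The shares of all genes were 7.51% higher and 6.97% lower with the block, and 3.72% and 3.07% with the set term. ADAM19 rose, from a control mean of 61.1 ± 9.68 to a treated mean of 111.8 ± 21.3 CPM (SD, n = 4), a log2 change of 0.86 (edgeR adjusted p = 0.000418), with all treated libraries above all controls. ADAM8 (log2 change 0.95) and ADAMTS9 (1.14) also rose. The ADAMTS9 call was lost in DESeq2 with the block (adjusted p = 0.0877) and without replicate 4 (edgeR adjusted p = 0.0646). The ADAMTS9 log2 change was 0.37 over replicates 1 and 2 and 2.10 over replicates 3 and 4, and that of ADAM8 was 0.39 and 1.54. ADAMTS9 was at 9.51, 10.5, 2.16 and 3.46 CPM in controls 1 to 4. Its treated cultures 1 to 4 held 10.8, 15.15, 13.7 and 10.5 CPM. ADAM8 controls were at 60.8, 67.2, 15.9 and 21.9 CPM, and its treated cultures at 78.8, 88.5, 54.5 and 55.6 CPM. For both genes the controls of numbers 3 and 4 were lower than those of numbers 1 and 2. The test of the difference between replicate sets was not passed by either (edgeR adjusted p = 0.120 and 0.178).

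Of 19 tested genes that activate, bind or inhibit MMPs, 4 rose and 1 fell (2 and 1 with the set term), with a median log2 change of 0.040. Beside them, 7.51% of all genes rose and 6.97% fell (3.72% and 3.07% with the set term). LCN2, lipocalin 2, which forms a complex with MMP9, rose (log2 change 1.67). PCSK6, a proprotein convertase, rose, from a control mean of 2.55 ± 0.34 to a treated mean of 5.59 ± 2.27 CPM (SD, n = 4), a log2 change of 1.08 (edgeR adjusted p = 0.00296). FURIN, the convertase known for opening the MMP14 precursor, rose by a log2 change of 0.49 (edgeR adjusted p = 0.0179), a call lost with the set term (adjusted p = 0.0743) and without replicate 1, 2 or 3 (adjusted p 0.0508 to 0.0865). PCSK5, another convertase, fell by 0.60 on the log2 scale (edgeR adjusted p = 0.011), which was lost under total counts with the block (adjusted p = 0.0585) and without replicate 1, 3 or 4 (adjusted p 0.0529 to 0.0673).

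Of 21 tested transcription factors and signalling genes linked to MMP gene regulation, 9 rose and 0 fell (7 and 0 with the set term), with a median log2 change of 0.34. Across all genes 7.51% rose and 6.97% fell (3.72% and 3.07% with the set term). FOSL1, an AP-1 subunit, rose, from a control mean of 44.4 ± 23.5 to a treated mean of 88.4 ± 32.0 CPM (SD, n = 4), a log2 change of 1.07 (edgeR adjusted p = 4.87e-05). The other FOS and JUN genes of the list, FOS, FOSB, FOSL2, JUN, JUNB and JUND, did not pass. Their blocked log2 changes were 0.25, -0.17, 0.23, -0.37, 0.13 and -0.067. ETV4, an ETS factor, rose by a log2 change of 0.90 and EGR1 by 1.35. In this list 2 genes, ATF3 and DUSP5, named after their values were seen, passed the test of a difference between replicate sets.

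Of 21 tested matrix and adhesion genes, among them MMP substrates, 7 rose and 2 fell (4 and 2 with the set term), with a median log2 change of 0.18. For all genes the shares were 7.51% and 6.97% (3.72% and 3.07% with the set term). The laminin-332 chains LAMB3 (log2 change 1.20) and LAMA3 (0.75) and the basement membrane linker NID1 (1.07) rose, and LAMA3 had an adjusted p of 0.0621 without replicate 3. SPARC, a collagen-binding matricellular protein, fell from 325.0 ± 121.6 to 188.9 ± 70.9 CPM (SD, n = 4; log2 change -0.78, edgeR adjusted p = 0.00116). COL5A1, a fibrillar collagen chain, fell by 0.70 on the log2 scale, with all treated libraries below all controls. With the group only, edgeR called 0 genes of each of these lists.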

How the data were processed

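RNA of 4 control and 4 glucose oxidase-treated SV-HUC1 cultures was sequenced. Alignment to GRCh38.p13 with HISAT2 (2.0.5), counting with featureCounts (1.5.0-p3) and DESeq2 (1.20.0) are named in the submitters' processing notes. The deposited counts are whole reads per gene. The deposited FPKM values were made by the authors, whose table also gives a normalised signal (mean per group), a log2 fold change, and a p-value with its adjusted form. No per-sample columns were left unused (0).

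Here, counts were tested with edgeR 4.0.16 in R 4.3.3 (TMM, filterByExpr with a minimum count of 10, quasi-likelihood test, Benjamini-Hochberg adjustment over 17413 genes, threshold 0.05). The tests were checked on simulated counts. The standard error is the log2 change divided by the square root of F. DESeq2 1.42.0 was an alternative. CPM values use TMM factors. The members, gene lists and the replicate sets were chosen with earlier results of these data known. The text names all 10 members and, from each other list, up to 3 genes called in each direction with the smallest adjusted p in the blocked fit, other names being chosen after their values were seen.

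The planned main fit did not pair libraries. Replicate numbers were taken to pair them only in the blocked fits. In deviations from group means (log2 CPM, prior count 2), controls and treated libraries of the same number correlated at 0.532, 0.678, 0.59 and 0.503 over all genes. These values were above the 0.1 required. Differently numbered libraries within numbers 1 and 2 or 3 and 4 correlated at 0.443 to 0.652, also above 0.1. Treated 4 correlated more with control 3 (0.652) than with control 4 (0.503). Pairing by number is therefore not separated from that division.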

Additional observations from a re-analysis of the deposited data

Results flagged for a closer look

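Among the 20 sets of 4 libraries (10 members in 2 groups), 5 held a library whose gap to its nearest neighbour took up an unusually large part of the whole range, where chance gives about 1 in 20 sets. The gap was 0.955 of the range for MMP2 in control 4, the highest control, at 7.11 CPM against 4.91 to 5.01 CPM in the others. For MMP9 it was 0.852 in control 2 (3.26 CPM) and 0.853 in treated 3 (4.96 CPM), each the highest of its group. For TIMP2 it was 0.834 in control 4 (101.5 CPM) and 0.878 in treated 2 (131.0 CPM).

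The change of 2 listed regulators differed between the replicate sets by edgeR's test of the difference. ATF3, a stress-induced AP-1 family factor, had log2 changes of 0.16 in numbers 1 and 2 and 2.14 in numbers 3 and 4 (adjusted p of the difference 0.0145). DUSP5, a phosphatase that acts on ERK, had 0.49 and 2.19 (adjusted p 0.0352). ATF3 was at 51.8, 74.4, 9.52 and 10.2 CPM in controls 1 to 4. Its treated cultures 1 to 4 held 73.7, 66.95, 49.1 and 38.3 CPM. DUSP5 controls were at 37.4, 35.9, 8.85 and 11.2 CPM, and its treated cultures at 47.9, 55.3, 53.4 and 38.1 CPM. For both genes the controls of numbers 3 and 4 were lower than those of numbers 1 and 2.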

How the results depend on the processing

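With the group only, edgeR called 0 members and 0 of the other listed genes in either direction. With the replicate block it called 1 member higher and 2 lower, and 25 other listed genes higher and 3 lower. The set term gave 0 and 2 members and 17 and 3 other genes, beside 648 and 534 of all genes. DESeq2 gave 0 members and 2 and 0 other genes, beside 35 and 39 of all genes. With the block it gave 0 and 2 members and 24 and 4 other genes, beside 1207 and 1299 of all genes. Without a count filter the calls were 0 members and 1 and 0 other genes, and with the block 1 and 2 members and 24 and 3 others, beside 1317 and 976 of all genes. Total counts called none, and with the block 1 and 2 members and 28 and 2 others, beside 1675 higher and 535 lower of all genes, against 1308 and 1213 with the block alone. Offsets for gene length with the block gave 1 and 2 members and 23 and 3 others, beside 1020 and 1174 of all genes. Leaving out libraries or replicate numbers gave 0 members higher and 0 to 2 lower, and 0 to 22 other genes higher and 0 to 3 lower. All values above 0 in that range come from the blocked fits, which without replicates 1, 2, 3 and 4 gave 18, 22, 15 and 20 other genes higher and 2, 3, 3 and 2 lower. Of all genes those fits called 593 to 978 higher and 507 to 908 lower. The members lower were then 2, 2, 2 and 1, the last being MMP7.

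The signs of MMP2, MMP7, MMP9, MMP14 and TIMP3 held under all 21 alternatives, and MMP7 was called under 9 of 9 with the block. Uncalled signs turned elsewhere. MMP1 had log2 changes of 0.094 under total counts, 0.099 under total counts with the block, 0.0080 without a filter with the block, 0.11 with length offsets and -0.27 to 0.36 with libraries left out (0.22 and 0.16 with the block and without replicates 2 and 3). TIMP1 had 0.11 and 0.10 under total counts without and with the block, 0.014 and 0.018 without a filter, 0.14 with length offsets and -0.18 to 0.17 with libraries left out (0.032 and 0.011 with the block and without replicates 1 and 3). With libraries left out MMP13 ran from -0.62 to 0.24 and TIMP2 from -0.0011 to 0.24, and with the block and without replicate 2 they were at 0.040 and -0.013. The difference between replicate sets became 0.043 for MMP1 and 0.11 for TIMP1 under total counts, and ran from -0.63 to 0.74 and from -0.099 to 0.075 with a replicate left out. The cause was not tested. Total counts with the block moved the median of all genes to 0.10. MMP1, MMP10 and MMP13 are limited by depth, with at most 47 counts in a library.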
